A study of Mus musculus with 6 samples.

Results

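The proteasome is a barrel-shaped protease that degrades proteins tagged with ubiquitin, and its transcripts were compared between CD8+ T cells taken from a tumor and CD8+ T cells taken from the spleen. The genes described are 41 listed symbols: the subunits of the constitutive core particle, the ATPase and non-ATPase subunits of the regulatory particle, the activator caps, and the chaperones that assemble these parts. They were listed by symbol and not filtered by their values, although earlier results of these data were known when the list was made. All 41 were found in the table of 55335 gene identifiers, and all 41 passed the filter on low counts that left 19783 genes for testing.

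The cells carry the P14 transgenic T cell receptor, which recognizes the GP33-41 peptide. They were given to C57BL/6 mice on day 11 after the implantation of B16-GP33-41 melanoma cells, which present that peptide. The tumor group is 3 libraries of P14 cells sorted from tumors (P14 TIL), and the spleen group is 3 libraries of P14 cells sorted from the spleens of the same tumor-bearing mice (P14 Sp). Both groups share the strain, the receptor transgene, the age of 10 weeks and the sort, and both come from tumor-bearing hosts, so there is no group from mice without a tumor. Tumor leukocytes passed a Percoll gradient that is not described for the spleens. The time from transfer to the sort is not stated. Whether the 3 libraries of a group came from separate mice is not stated, so p-values here reflect nothing but how much these libraries differ within a group, which may be technical.

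Total counts lay between 35095261 and 38263483. The biological coefficient of variation fitted over all tested genes was 10.6% among tumor and 3.21% among spleen libraries. T cell markers were present in every library: the summed level of 8 CD8 T cell genes was 3934 to 4122 CPM (counts per 1000000 counts of the library) in tumor and 4557 to 4619 CPM in spleen. Of these 8 genes, 1 was higher in tumor (Cd8a, log2 fold change 0.85) and 3 were lower, Cd8b1 the most (-0.62). The libraries also differed in RNA of other cells. All 10 B cell markers, all 10 macrophage markers and all 9 dendritic cell markers tested were lower in tumor. Their summed levels were 10.7 to 12.8 CPM in tumor against 548.1 to 564.5 CPM in spleen for B cells. They were 31.1 to 31.3 against 235.7 to 247.0 CPM for macrophages, and 44.0 to 47.3 against 1632 to 1676 CPM for the dendritic cell list. Most of the last sum was Cd74 (mean 1010 CPM in spleen) with H2-Ab1 (319), H2-Aa (168) and H2-Eb1 (144), which B cells also express. The other genes of that list were at 0.437 (Siglech) to 7.26 CPM (Xcr1) in spleen. These sums therefore do not compare the amounts of B cells and dendritic cells. Of 8 stroma markers 2 were tested, with 0 higher and 1 lower. Their sum was 52.3 to 57.1 CPM in tumor against 86.4 to 88.5 CPM in spleen, most of it Pecam1. The remaining lists did not all follow this direction. Of 6 erythroid markers 5 were higher in tumor, with a summed level of 247.1 to 274.2 CPM against 207.5 to 210.1 CPM. Of 7 melanoma markers 3 were tested, with 1 higher and 1 lower, and the sum was 9.65 to 10.9 CPM in tumor against 19.4 to 21.4 CPM in spleen, most of it Pmel. The melanoma genes Dct (16, 18 and 17 counts in tumor; 0, 1 and 0 in spleen) and Tyrp1 (31, 24 and 9 counts; 0 in every spleen library) were detected nearly only in tumor. In the tumor libraries the B cell gene Cr2 and the dendritic cell genes Clec9a and Siglech were at 0 counts, while no B cell, macrophage or dendritic cell marker was at 0 throughout spleen. Of 10 heat shock genes, all 10 were higher in tumor (summed level 6101 to 6445 against 2381 to 2422 CPM). The part of any of these in the differences below was not tested. The sample codes end alike within each tissue and differently between tissues; if that ending marks a batch, its effect cannot be told apart from that of tissue.

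As background, the core particle is a stack of rings. Outer rings of alpha subunits (Psma genes) gate the entrance, and inner rings of beta subunits (Psmb genes) hold the proteolytic sites. The regulatory particle docks on the ends; its ATPases (Psmc genes) unfold substrates, and its non-ATPase subunits (Psmd genes) bind ubiquitin and remove it. In lymphocytes and after interferon gamma, the catalytic beta subunits can be replaced by the immunoproteasome subunits, and other caps can take the place of the regulatory particle. A T cell that divides or turns over much protein depends on this protease, and peptides for MHC class I come from it.

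A binding site for NFE2L1, the transcription factor known to raise proteasome genes when proteasome activity falls, was looked for because the members moved together. The site is the antioxidant response element, with the core letters TGACNNNGC, searched on both strands from 250 bases before to 50 bases after each start site in RefSeq (build GRCm38.p6, which is mm10). Promoters were listed for 34 of the 41 genes, and 6 of these genes held the core. The 6 sites follow, each with up to 10 bases on either side, on the strand of the gene and 5′ to 3′, and with the core in capitals.

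Psmb6: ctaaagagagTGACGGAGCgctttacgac
Psmd12: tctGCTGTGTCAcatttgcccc
Psmc6: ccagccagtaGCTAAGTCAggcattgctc
Psmb5: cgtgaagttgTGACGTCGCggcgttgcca
Psmd9: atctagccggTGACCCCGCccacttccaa
Psme4: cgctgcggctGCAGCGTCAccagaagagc

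The stretches lie at chr11:70525338-70525366 for Psmb6, chr11:107479278-107479299 for Psmd12 and chr14:45329587-45329615 for Psmc6, at chr14:54618024-54618052 for Psmb5, which is on the minus strand, and at chr5:123228149-123228177 for Psmd9 and chr11:30771758-30771786 for Psme4. The core reads in the direction of the gene in Psmb6, Psmb5 and Psmd9 and on the opposite strand in the other 3. Of 37 member promoters, 6 (16.2%) held the core, beside 12.4% of all 32851 promoters of this length. The CCAAT box (CCAAT, 32.4% of member promoters, 37.4% of all) and the E box CACGTG (8.11% and 7.15%) were also near their share in all promoters. The 6 genes with the core had a median log2 fold change of 0.50 (-0.03 to 0.66), and the 28 genes without it 0.43 (-0.09 to 0.97).

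Transcripts of the constitutive proteasome were higher in the P14 cells from tumor than in those from spleen. Of the 41 genes, 38 were higher and 0 were lower by edgeR's quasi-likelihood test (threshold 0.05 on p-values adjusted over all genes by Benjamini-Hochberg), and by this rule 34.8% of all tested genes were higher and 35.9% lower. At an unadjusted p under 0.05, as with DESeq2 and limma-voom, again 0 of the 41 were lower. The median log2 fold change of the 41 genes was 0.46, while that of all tested genes was -0.02. Among the 7245 genes whose mean CPM lay in the range of the members (23.5 to 310.1), the median was 0.08 and 43.5% were higher. No member rose as much as 2-fold. In 14 of the 38 the fitted rise was at least 1.5-fold. The share of all tested genes by that rule was not computed. All 3 tumor libraries lay above all 3 spleen libraries for 38 genes (35.1% of all tested genes) and below them for 1, Psme1 (39.4%).

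Summed over the 41 genes, the proteasome took 0.575%, 0.581% and 0.614% of the counts in tumor replicates 1, 2 and 3, and 0.441%, 0.436% and 0.443% in spleen replicates 1, 2 and 3. The tissues did not overlap, and tumor replicate 3 was the highest library. The share was 0.590% ± 0.0208 in tumor and 0.440% ± 0.00351 in spleen (SD, n = 3 each), a ratio of 1.34, with a two-sided exact permutation p = 0.1, which is the smallest that 3 against 3 libraries can give. In bulk RNA, fewer cells of a type and less RNA per cell cannot be told apart.

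**Figure D1:**
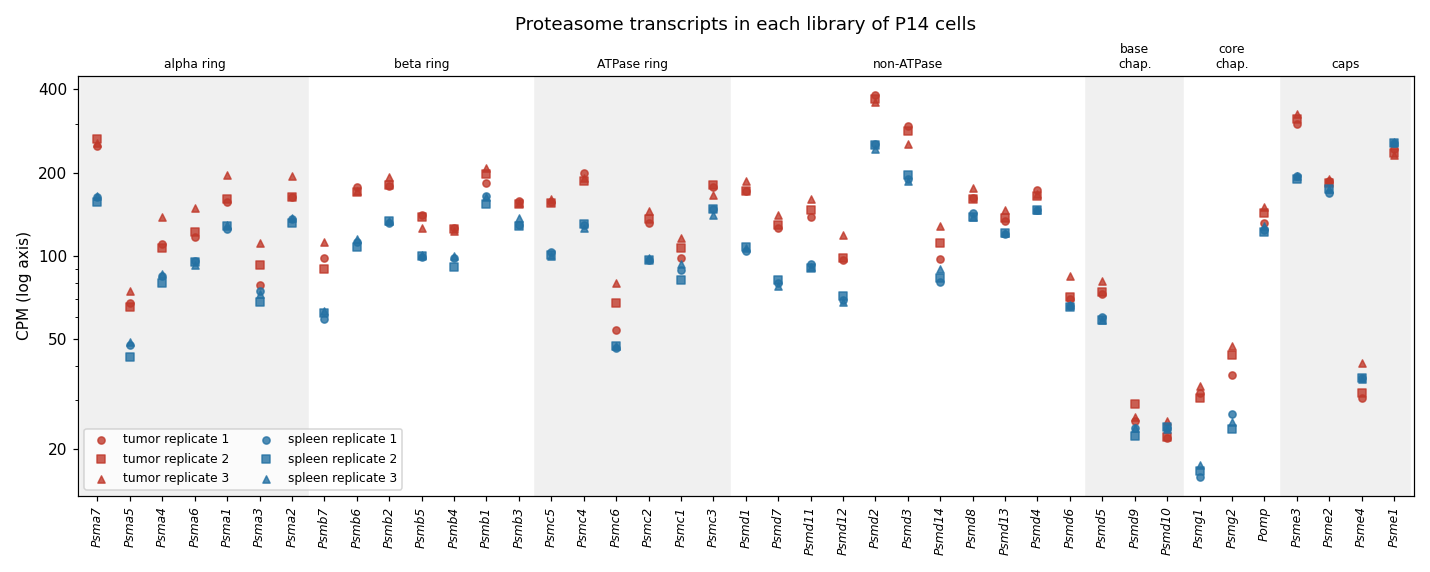
CPM of each of the 41 proteasome genes (log axis) in the 3 tumor (red) and 3 spleen (blue) libraries, grouped by complex and ordered within each group by the fold change; marker shapes give the replicate number. The red points lie above the blue ones for 38 genes, with Psme1 the reverse and Psmd10 and Psme4 mixed, and the spleen points lie closer together.

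The alpha ring rose as a whole, 7 of 7 genes, from 1.31-fold to 1.62-fold. Psma7, the alpha subunit with the highest counts, had 249, 265 and 255 CPM in tumor and 163, 157 and 164 CPM in spleen. The tissues are far apart for this gene, and no tumor library stands out (log2 fold change 0.70, SE 0.05, edgeR adjusted p = 3.6e-07). It lies on the minus strand of chromosome 2 at 180036374 to 180042433 (mm10). Psma5 was at 67.6, 65.2 and 74.7 CPM in tumor and 47.6, 43.1 and 48.9 CPM in spleen (1.52-fold, edgeR adjusted p = 1.5e-05). Psma3 was at 78.6, 92.6 and 111 CPM in tumor and 74.4, 68.2 and 72.7 CPM in spleen. Its tumor replicate 1 lies just above the spleen libraries and replicate 3 well above (log2 fold change 0.42, SE 0.10, edgeR adjusted p = 0.0025). The same order of tumor libraries, with replicate 3 highest, appears in Psma1 (157, 161 and 196 CPM), and replicate 3 is also the highest in Psma4 (110, 107 and 138 CPM) and Psma6 (117, 122 and 149 CPM). Psma2 had the smallest fitted value of the ring (0.39), but a correction for GC content and gene length moved it to 0.60, and moved Psma6 from 0.48 to 0.24 and Psma5 from 0.60 to 0.36. Among all 41 genes, tumor replicate 3 was the highest tumor library for 29, replicate 1 for 9 and replicate 2 for 3. Without replicate 3 the median log2 fold change of the members was 0.41 and again 38 were higher.

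The beta ring also rose in 7 of 7 genes, from 1.21-fold to 1.66-fold. The catalytic subunits are encoded by Psmb6 (caspase-like site), Psmb7 (trypsin-like site) and Psmb5 (chymotrypsin-like site, the main target of proteasome inhibitors). Psmb7 was at 98.5, 89.5 and 112 CPM in tumor and 58.9, 61.9 and 63.3 CPM in spleen, a log2 fold change of 0.73 (SE 0.08, edgeR adjusted p = 6.0e-06). Psmb6 was at 177, 170 and 171 CPM in tumor and 112, 108 and 115 CPM in spleen (0.66, SE 0.06, edgeR adjusted p = 9.6e-07). For Psmb5 the values were 140, 138 and 126 CPM against 98.8, 100 and 101 CPM (0.46, SE 0.06, edgeR adjusted p = 4.9e-05). In each of the 3 genes the lowest tumor library exceeded the highest spleen library, and tumor replicate 3 was the lowest tumor library for Psmb5 and the highest for Psmb7. The non-catalytic subunits rose by 0.49 (Psmb2), 0.40 (Psmb4), 0.32 (Psmb1) and 0.28 (Psmb3) on the log2 scale. After the correction for GC content and gene length, the log2 fold change of Psmb5 was 0.20 and that of Psmb2 0.22, and both were still called higher. A processed pseudogene of Psmb6 on chromosome 1, Psmb6-ps2, had 1000, 958 and 972 counts in tumor and 638, 560 and 591 in spleen, so reads of the gene and of this copy may be split between them.

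In the regulatory particle, 17 of 17 subunits rose, 6 of 6 ATPases and 11 of 11 non-ATPase subunits. The ATPases rose from 1.22-fold to 1.58-fold. Psmc5 was at 157, 155 and 160 CPM in tumor and 103, 101 and 100 CPM in spleen, with very little spread in either tissue (log2 fold change 0.66, SE 0.05, edgeR adjusted p = 4.4e-07). Psmc4 rose by 0.61 and Psmc2 by 0.53. Psmc6 was at 53.7, 67.5 and 79.5 CPM in tumor and 46.3, 47.2 and 47.3 CPM in spleen. Its tumor libraries spread more than those of any other ATPase gene, and its error was the largest of the 41 (0.54, SE 0.11, edgeR adjusted p = 0.00085). Psmc1 rose by 0.31 and Psmc3 by 0.29. The correction for GC content and length moved Psmc6 to 0.88, Psmc5 to 0.43 and Psmc1 to 0.19, so the order of the ATPase genes depends on it.

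Among the non-ATPase subunits, the scaffold subunits of the base are encoded by Psmd1 and Psmd2. Psmd2 had the highest counts of all members, 383, 368 and 360 CPM in tumor and 254, 251 and 244 CPM in spleen (1.51-fold, edgeR adjusted p = 1.7e-06). Psmd1 was at 171, 171 and 187 CPM in tumor and 104, 108 and 107 CPM in spleen, a log2 fold change of 0.76 (SE 0.06, edgeR adjusted p = 2.7e-07). No tumor library of these genes came near a spleen library. Psmd4, a ubiquitin receptor of the base, rose little, with 173, 165 and 168 CPM against 146, 146 and 147 CPM (0.23, SE 0.05, edgeR adjusted p = 0.0020).

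The listed genes of the lid, which surrounds the deubiquitinase, had log2 fold changes from 0.22 to 0.75. Differences between these genes were not tested. Psmd7, the partner of the deubiquitinase, was at 126, 129 and 141 CPM in tumor and 79.6, 81.5 and 78.1 CPM in spleen (0.75, SE 0.06, edgeR adjusted p = 4.1e-07). Psmd11, a lid subunit with 138, 146 and 161 CPM against 93.1, 90.5 and 90.8 CPM, rose by 0.72 (SE 0.06). Psmd14, the deubiquitinase itself, was at 97.8, 111 and 128 CPM in tumor and 80.5, 82.9 and 89.5 CPM in spleen. It rose by 0.44 (SE 0.08, edgeR adjusted p = 0.00065), less than its partner, though that difference between the 2 genes was not tested. Psmd12 (0.61) and Psmd3 (0.57) rose as well, and Psmd8 (0.28), Psmd13 (0.24) and Psmd6 (0.22) rose least. Psmd6 was at 69.8, 70.8 and 84.7 CPM in tumor and 65.9, 65.3 and 66.4 CPM in spleen (edgeR adjusted p = 0.019). Its call was lost without spleen replicate 1, 2 or 3 (edgeR adjusted p = 0.066, 0.067 and 0.051) and with upper-quartile scaling (0.061).

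**Figure D2:**
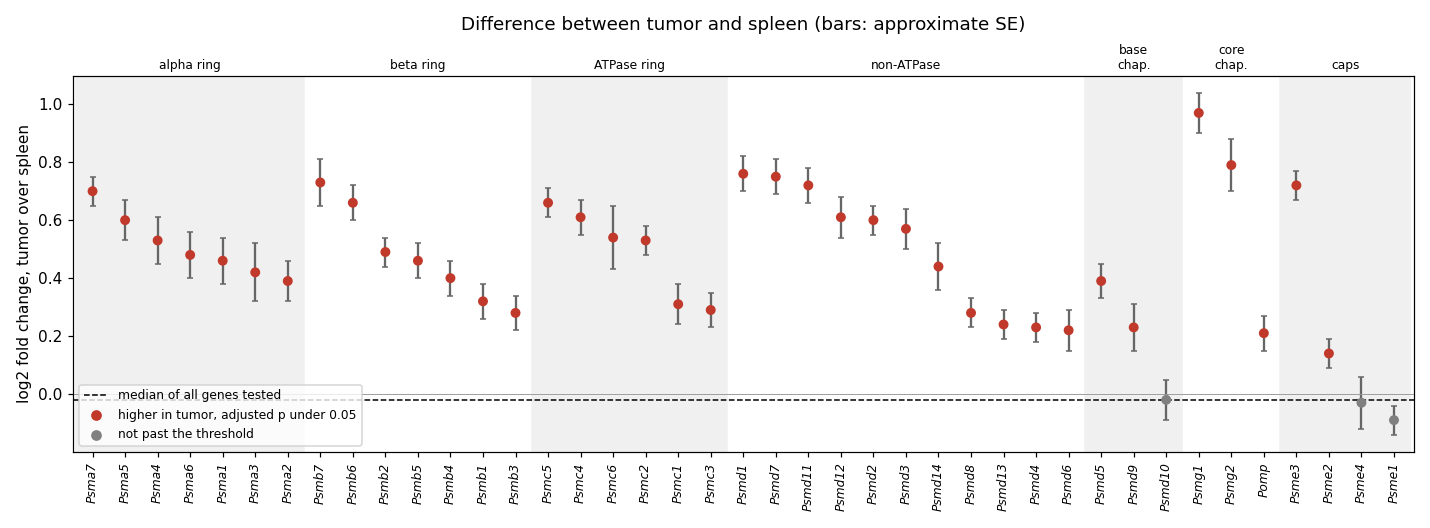
Log2 fold change, tumor over spleen, of the 41 genes with its approximate SE, in the groups of the complex; red points passed an adjusted p of 0.05 and gray points did not, and the dashed line is the median of all tested genes (-0.02). Subunits of the core and regulatory particles lie between 0.22 and 0.76, and Psmd10, Psme4 and Psme1 lie near 0.

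Per base of the gene model, levels differed between subunits far more than between tissues. On this scale, counts per base of annotated exon scaled to the same sum in each library, the 14 core subunits ranged in tumor from 34.1 for Psma3 to 216 for Psmb2, with a median of 86.3, and the 17 regulatory particle subunits from 27.0 for Psmc6 to 159 for Psmc5, with a median of 76.9. In spleen the core ranged from 28.2 for Psmb7 to 175 for Psmb5 (median 72.8) and the regulatory particle from 21.1 for Psmc6 to 114 for Psmc5 (median 56.0). The SD of the log2 level among core subunits was 0.79 in both tissues. The exon length counts every annotated transcript of a gene, so unused exons lower these levels.

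The chaperones of assembly did not move alike. The heterodimer that starts the alpha ring is made by Psmg1 and Psmg2, and these had the largest fitted rises of the 41 genes. After the correction for GC content and length they were 0.73 and 0.64, below Psmd11 (0.94), Psmc6 (0.88), Psmb7 (0.87), Psmd1 (0.81) and Psma7 (0.77), and Psmg2 was also not among the first 2 without tumor replicate 2 or 3 or spleen replicate 2. Psmg1 was at 31.8, 30.7 and 33.8 CPM in tumor and 15.9, 16.7 and 17.5 CPM in spleen, a 1.96-fold rise (log2 fold change 0.97, SE 0.07, edgeR adjusted p = 3.8e-07). Psmg2 was at 37.1, 43.8 and 47.0 CPM in tumor and 26.7, 23.6 and 25.1 CPM in spleen (0.79, SE 0.09, edgeR adjusted p = 8.2e-06). Pomp, which guides the beta ring and joins the parts of the core, was more abundant and changed little, with 131, 143 and 150 CPM against 124, 122 and 128 CPM (0.21, SE 0.06, edgeR adjusted p = 0.0081). Its tumor replicate 1 is only slightly above the spleen libraries.

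Of the chaperones of the ATPase ring, the 41 genes include Psmd5, Psmd9 and Psmd10. Psmd5 rose, with 72.5, 74.2 and 81.2 CPM in tumor and 60.0, 58.4 and 58.7 CPM in spleen (0.39, SE 0.06, edgeR adjusted p = 0.00010). Psmd9, with 25.3, 29.0 and 26.1 CPM against 23.8, 22.3 and 23.8 CPM, was higher by 0.23 (edgeR adjusted p = 0.018), a call lost without tumor replicate 2 or spleen replicate 2 (edgeR adjusted p = 0.081 for each) and with upper-quartile scaling (0.055). Psmd10, known as gankyrin, was at 21.9, 22.2 and 25.3 CPM in tumor and 23.8, 24.0 and 23.7 CPM in spleen. The tissues overlap for this gene, and it did not pass (-0.02, SE 0.07, edgeR adjusted p = 0.85).

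Of the activator caps, 2 of 4 genes were higher, and 1 of them, Psme3, by at least 1.5-fold. Psme3 encodes a nuclear cap, which opens the core without ubiquitin. It was at 299, 312 and 325 CPM in tumor and 195, 189 and 195 CPM in spleen, a 1.65-fold rise (log2 fold change 0.72, SE 0.05, edgeR adjusted p = 2.2e-07). Psme1 and Psme2 encode the interferon-inducible cap and lie as neighbours on chromosome 14, Psme1 at 55578123 to 55581529 and Psme2 at 55587441 to 55591113 (mm10). Psme1 was at 244, 235 and 231 CPM in tumor and 255, 257 and 259 CPM in spleen. All tumor libraries were below all spleen libraries, but the difference did not pass (-0.09, SE 0.05, edgeR adjusted p = 0.16). With upper-quartile scaling (edgeR adjusted p = 0.034), library totals alone (0.044) or the correction for GC content and length (0.0084), Psme1 was called lower.

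Psme2 was at 187, 184 and 190 CPM in tumor and 169, 175 and 175 CPM in spleen, and was called higher by a small margin (0.14, SE 0.05, edgeR adjusted p = 0.029). With the replicate number as a block its edgeR adjusted p was 0.061. It was also lost without spleen replicate 1, 2 or 3 (edgeR adjusted p = 0.13, 0.067 and 0.065), with upper-quartile scaling (0.15) and with library totals alone (0.059), and with the correction for GC content and length its log2 fold change was -0.01. Psme4, which encodes a large single-chain cap, had 30.7, 32 and 41.0 CPM in tumor and 36.2, 36.2 and 35.8 CPM in spleen. Tumor replicates 1 and 2 lie below and replicate 3 above the spleen libraries (-0.03, SE 0.09, edgeR adjusted p = 0.76), and without replicate 3 the gene was called lower (-0.15, edgeR adjusted p = 0.026). B cells and dendritic cells, whose markers were higher in the spleen libraries, also express this interferon-inducible cap, and the part of their RNA in the Psme1 and Psme2 values was not tested.

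The immunoproteasome subunits, which are not among the 41 genes, did not rise with their constitutive counterparts. Psmb8 was at 540, 522 and 506 CPM in tumor and 530, 528 and 529 CPM in spleen (0.01, SE 0.05, edgeR adjusted p = 0.84). Psmb9 was at 272, 257 and 258 CPM in tumor and 288, 283 and 282 CPM in spleen (-0.09, SE 0.05, edgeR adjusted p = 0.15). It was called lower with upper-quartile scaling (edgeR adjusted p = 0.033) and with library totals alone (0.043). Psmb10 had 124, 122 and 118 CPM in tumor and 214, 212 and 218 CPM in spleen. It was 1.73-fold lower in tumor, with the tissues far apart (-0.79, SE 0.05, edgeR adjusted p = 1.7e-07).

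Set against the constitutive subunit for the same site in the same library, each inducible subunit was lower in tumor. A ratio within a library does not depend on the scaling between libraries, but it can depend on GC content and length. The log2 ratio of counts of Psmb10 over Psmb7 was 0.34, 0.45 and 0.07 in tumor and 1.86, 1.78 and 1.78 in spleen, a difference of -1.52. For Psmb9 over Psmb6 it was 0.61, 0.60 and 0.59 against 1.36, 1.39 and 1.29, a difference of -0.75. For Psmb8 over Psmb5 it was 1.95, 1.92 and 2.01 against 2.42, 2.40 and 2.39, a difference of -0.44. The tissues did not overlap in any of the 3 ratios (two-sided exact permutation p = 0.1 each, the smallest possible with n = 3 per tissue, and 0.1 when adjusted over the 3). From the fits corrected for GC content and length, the differences were -0.15 for Psmb8 over Psmb5, -0.55 for Psmb9 over Psmb6 and -1.76 for Psmb10 over Psmb7, with no test. A ratio of this kind shows unequal change and not which of its genes changed. B cells, dendritic cells and macrophages also express the inducible subunits, and their markers were lower in the tumor libraries; the part of their RNA in these ratios was not tested.

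**Figure D3:**
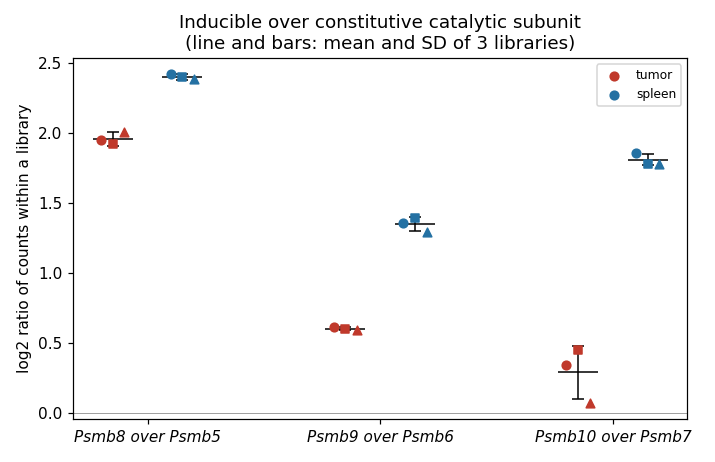
Log2 ratio of the counts of an inducible over the constitutive subunit of the same catalytic site, in each library (circle, square and triangle for replicates 1, 2 and 3), with mean and SD over 3 libraries per tissue. All red points (tumor) lie below the blue ones (spleen), and the gap is widest for Psmb10 over Psmb7.

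Other genes of the ubiquitin and proteasome system moved in both directions. Of 37 genes listed in 4 groups, 34 were tested, and 1 (Paaf1, a further chaperone of the ATPase ring) matched no row by its symbol. Of these, 18 were higher and 6 lower, where 34.8% of all tested genes were higher and 35.9% lower. The median log2 fold change was 0.24, while that of all tested genes was -0.02. Psma8 and Psmb11, the alpha subunit of the testis and the beta subunit of the thymus, had at most 6 counts in any library and were not tested.

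Transcripts of the factors behind proteasome gene induction were split, 2 higher and 2 lower of 4 (34.8% and 35.9% of all tested genes). Nfe2l1, the transcription factor, was at 96.6, 102 and 87.0 CPM in tumor and 78.5, 81.8 and 73.8 CPM in spleen (0.32, SE 0.07, edgeR adjusted p = 0.0024). Ddi2, the protease that cleaves it into its active form, rose by 0.49 (edgeR adjusted p = 0.00028). Ngly1, which removes its sugar chains, fell by 0.46 on the log2 scale, from 79.3, 77.6 and 79.2 CPM in spleen to 48.3, 55.8 and 64.0 CPM in tumor (after the correction for GC content and length the value was -0.30). Nfe2l2, the related factor of the oxidative stress response, was at 23.5, 24.0 and 27.7 CPM in tumor and 46.4, 44.7 and 45.0 CPM in spleen (1.78-fold lower, edgeR adjusted p = 1.2e-06). The tissues did not overlap for any of the 4 genes, which is common in these data. Among all tested genes, 35.1% had all tumor libraries above and 39.4% all below.

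Of 12 tested genes for further proteasome parts and partners, 7 were higher and 1 lower (34.8% and 35.9% of all tested genes). Txnl1, a thioredoxin of the regulatory particle, was at 71.4, 86.1 and 100 CPM in tumor and 43.9, 46.0 and 45.1 CPM in spleen (1.94-fold, edgeR adjusted p = 3.9e-06). Ecpas, an adaptor that binds both particles, rose 1.54-fold. Zfand5, which binds the proteasome during atrophy of muscle, was called lower (-0.20, edgeR adjusted p = 0.027), although its tissues overlapped; the call was lost without tumor replicate 1 or 2 (edgeR adjusted p = 0.080 and 0.091) or spleen replicate 1 or 2 (0.13 and 0.10).

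Ubiquitin genes and shuttle factors were higher in 9 of 15 and lower in 2 (34.8% and 35.9% of all tested genes). The shuttle gene Ubqln4 was at 94.5, 91.5 and 87.1 CPM in tumor and 42.7, 43.6 and 42.7 CPM in spleen, a 2.16-fold rise. Rps27a, which encodes ubiquitin fused to a ribosomal protein and has near-identical copies in the genome, rose by 0.80. Nub1, which delivers certain ubiquitin-like conjugates to the proteasome, fell by 0.53 on the log2 scale.

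**Figure D4:**
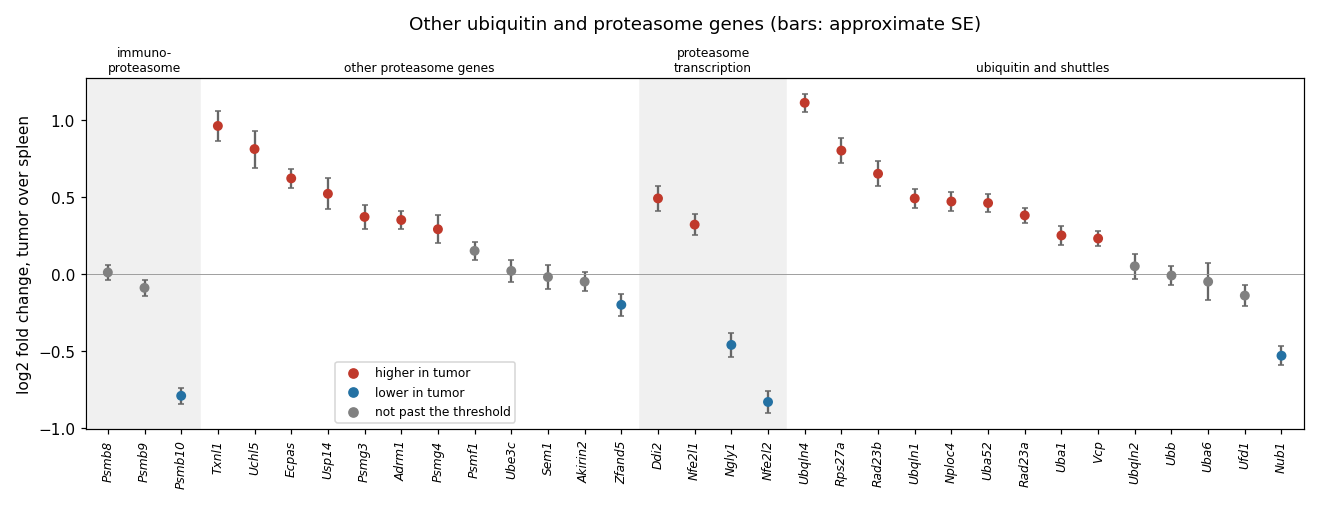
Log2 fold change, tumor over spleen, with approximate SE, of 33 of the other ubiquitin and proteasome genes tested, in 4 groups (red higher, blue lower, gray not past the threshold). Psmb10 and Nfe2l2 lie lowest at -0.79 and -0.83, and Ubqln4 highest at 1.11.

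Against a null of a 1.5-fold change, edgeR called 8 of the 41 genes higher, where 14.9% of all tested genes were higher by that rule. The 8 were Psma7, Psmb7, Psmd1, Psmd7, Psmd11, Psmg1, Psmg2 and Psme3. With the spleen libraries summed into 1 sample, 27 of the 41 were higher; that fit has no spread within spleen and takes it from the 3 tumor libraries alone, which vary more. Exons of 9 of the 41 genes overlap a gene model on the opposite strand (among them Psmb7 with Nek6 and Psme1 with Emc9). No source used here says whether reads were counted by strand, so reads of such pairs may be mixed. Exons of 2 members overlap a model on the same strand, Psmd1 with Gm21972 and Psmb5 with Mir686. Reads shared by these pairs cannot be told apart by strand.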

How the data were processed

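The deposited values are raw counts of reads per Ensembl gene, which the authors made with bcl2fastq 2.20.0.422, STAR 2.3 and featureCounts on the mm10 genome, per the submitters' processing notes. No source used here gives the annotation, the strand setting or the treatment of multi-mapped reads. Library construction used the SMARTer ultra-low-input and TruSeq stranded kits, per the labels' protocols. Symbols, positions and exon lengths came from GENCODE M21 (mm10) or a list of gene names, with a symbol for 55154 of 55335 identifiers; promoters came from RefSeq (GRCm38.p6).

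Tumor and spleen (3 libraries each) were compared over all genes in R 4.3.3 by the quasi-likelihood test of edgeR 4.0.16 ( TMM scaling, filterByExpr with a minimum count of 10 and total of 15, Benjamini-Hochberg threshold 0.05). SE is the absolute log2 fold change over the square root of F. CPM uses the library total. Alternatives were other scalings, no filter, DESeq2 1.42.0, limma-voom (limma 3.58.1), a replicate block, a 1.5-fold null, summed spleen libraries, each library left out, and a loess correction for GC content and length (span 0.3). The procedure was also run on simulated data with far fewer changed genes than were called here. That run therefore cannot test the scaling or the error rate in these data. Members and lists were chosen with earlier results of these data known. All members could be named; of other lists over 5 genes, the 2 with the smallest p in each direction, of which 1 gene is not reported here. Total counts per library were 35095261 to 38263483.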

Additional observations from a re-analysis of the deposited data

How the results depend on the processing

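Across 15 alternatives other than the 1.5-fold null, 27 of the 38 members called higher kept their call (11 lost it with the spleen libraries summed), and 37 kept a positive fold change in all 15, the exception being Psme2 (-0.01 after the correction for GC content and length). In the same correction the called pathway genes Psmg4 (-0.04) and Zfand5 (0.05) also changed sign. Among genes not called in the main fit, Psme4 (0.06), Sem1 (0.04) and Uba6 (0.27) changed sign. Of these, Uba6 was then called higher (edgeR adjusted p = 0.002). The number of members higher was 35 to 38 under the other scalings, filter and tools, the block, the GC and length correction and each left-out library, and 27 with the spleen libraries summed, where the lone spleen sample is assumed to vary like the tumor libraries. The GC and length correction moved the value of 9 of the 38 members called higher by over 1.5 times, up in 2 (Psma2, Psmc6) and down in 7 (Psma5, Psma6, Psmb2, Psmb5, Psmc1, Psmc5, Psme2). Under the 1.5-fold null 8 members were higher, and the counts fell to 4 higher and 2 lower for the other pathway genes and to 2953 higher and 3464 lower for all genes. The number of members lower was 0, but 1 with upper-quartile scaling, with library totals only and with the GC and length correction (Psme1 each time), and 0 to 1 when 1 library was left out (1, Psme4, without tumor replicate 3). The median of the members stayed between 0.40 and 0.53, while that of all genes was -0.15 with no filter and -0.16 with DESeq2, which test more genes of low counts, beside -0.02. With the replicate number as a block, 37 members were higher and only Psme2 lost its call. The numbers gave no sign of pairing, since deviations of equal-numbered libraries correlated at -0.00079, 0.016 and 0.0024, and the labels do not say that equal numbers mean the same mouse. The cause of the changes under scaling and correction was not tested. The ratio of summed shares was 1.31 to 1.36 with 1 library left out and 1.41 over nuclear protein genes. The differences in log2 ratio were -0.47 to -0.42, -0.78 to -0.73 and -1.60 to -1.41 for Psmb8, Psmb9 and Psmb10 over their counterparts with 1 library left out, and -0.15, -0.55 and -1.76 after the GC and length correction, a comparison chosen after seeing the data. Depth limits Psma8 and Psmb11, where 3 counts are 0.0784 to 0.0855 CPM.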
